A study of Mus musculus with 17 samples.

Results

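This report describes the mouse genes whose promoter windows carried 4 or more separately listed H3K27ac regions in a Parkinson's disease model, a table in which most genes carried 1. The members were all regions whose gene name occurred in at least 4 rows of the H3K27ac table, which gave 735 of 11424 regions (6.43%) in 176 of 7253 named genes (2.43%). Of these genes 153 had 4 regions, 17 had 5, Ash2l, Celf2, Mia2, Tmem135 and Zbtb44 had 6, and the small RNA gene Rn4.5s had 8. The number of rows alone chose them, and the RNA levels were not used. How a region came to be listed is not known, and no listed region had 6-OHDA+NDST3 below 6-OHDA. The choice is therefore not independent of the signal or of the differences between groups.

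The brain samples came from ICR mice of the wild type strain that were 8 weeks old at injection. Sham animals served as controls, 6-OHDA animals received the toxin 6-hydroxydopamine at 10 µg/µL in the substantia nigra on 1 side, and 6-OHDA+NDST3 animals additionally received, 5 days later, 2 µL of an AAV9 vector in which the CMV promoter, which is active in many cell types, drives human NDST3. H3K27ac was profiled by CUT&RUN in 2 libraries per group, which the deposited table holds as 1 tag signal per group. RNA was sequenced in 2 sham, 1 6-OHDA and 2 6-OHDA+NDST3 libraries, and chromatin accessibility was measured by ATAC-seq in 1 library per group.

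H3K27ac is acetylation of lysine on the tail of histone H3, a mark placed by p300 and CBP and removed by histone deacetylases, and it is found at active promoters and enhancers. CUT&RUN cuts DNA around an antibody bound to the mark, so the nucleosomes that flank an active transcription start can appear as separate regions with a gap at the start itself. 6-OHDA enters and kills catecholaminergic neurons through their transporters, and NDST3 is an N-deacetylase and N-sulfotransferase of heparan sulfate that has also been linked to deacetylation of tubulin.

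Several promoter sequences carry the findings given further on and are printed from the RefSeq promoter table of build GRCm38.p6, each as the 250 bases before a transcription start, 5′ to 3′ on the gene's strand. Capitals mark bases under a listed H3K27ac region, placed by the distance to the start that the table gives. Idh1 is shown because a region there had the largest ratio among the members, and Nxt1 because both regions nearest to its start had little signal in 6-OHDA. Sar1a is shown because its region at the start had the member ratio furthest below 0 for 6-OHDA+NDST3 against sham. Celf2 is shown because its 3 starts behaved differently.
Idh1, chr1:65186480-65186729, minus strand: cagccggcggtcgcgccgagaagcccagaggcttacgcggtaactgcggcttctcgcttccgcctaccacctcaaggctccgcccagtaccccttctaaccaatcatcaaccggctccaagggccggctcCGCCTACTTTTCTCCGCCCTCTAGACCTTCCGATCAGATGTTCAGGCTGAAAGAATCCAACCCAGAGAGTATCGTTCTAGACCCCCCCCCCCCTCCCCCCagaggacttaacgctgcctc
Nxt1, chr2:148672365-148672614, plus strand: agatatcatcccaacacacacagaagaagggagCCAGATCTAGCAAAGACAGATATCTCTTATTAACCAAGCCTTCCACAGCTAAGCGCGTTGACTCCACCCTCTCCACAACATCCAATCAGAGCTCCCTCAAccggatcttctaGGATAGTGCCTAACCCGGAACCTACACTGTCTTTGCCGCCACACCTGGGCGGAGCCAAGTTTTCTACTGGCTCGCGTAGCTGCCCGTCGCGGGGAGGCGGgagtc
Sar1a, chr10:61680035-61680284, plus strand: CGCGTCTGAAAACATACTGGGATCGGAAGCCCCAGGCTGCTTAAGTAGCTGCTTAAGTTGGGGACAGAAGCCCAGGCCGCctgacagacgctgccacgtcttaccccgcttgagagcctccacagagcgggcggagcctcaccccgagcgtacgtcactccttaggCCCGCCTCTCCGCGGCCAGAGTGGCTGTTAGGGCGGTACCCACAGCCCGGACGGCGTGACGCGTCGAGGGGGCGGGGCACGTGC
Celf2 start 1, chr2:6721663-6721912, minus strand: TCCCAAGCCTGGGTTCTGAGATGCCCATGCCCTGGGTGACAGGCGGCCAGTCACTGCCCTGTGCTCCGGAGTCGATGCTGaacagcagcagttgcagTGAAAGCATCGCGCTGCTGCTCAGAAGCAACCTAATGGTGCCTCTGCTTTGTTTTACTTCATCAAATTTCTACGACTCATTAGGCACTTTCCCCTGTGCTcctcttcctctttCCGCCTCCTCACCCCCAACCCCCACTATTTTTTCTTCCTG
Celf2 start 2, chr2:7081303-7081552, minus strand: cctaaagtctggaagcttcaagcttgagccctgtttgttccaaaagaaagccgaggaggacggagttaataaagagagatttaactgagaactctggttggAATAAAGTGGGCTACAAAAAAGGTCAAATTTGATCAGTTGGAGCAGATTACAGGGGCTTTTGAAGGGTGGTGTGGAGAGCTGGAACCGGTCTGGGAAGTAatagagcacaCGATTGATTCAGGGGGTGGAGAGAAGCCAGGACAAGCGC
Celf2 start 3, chr2:7396199-7396448, minus strand: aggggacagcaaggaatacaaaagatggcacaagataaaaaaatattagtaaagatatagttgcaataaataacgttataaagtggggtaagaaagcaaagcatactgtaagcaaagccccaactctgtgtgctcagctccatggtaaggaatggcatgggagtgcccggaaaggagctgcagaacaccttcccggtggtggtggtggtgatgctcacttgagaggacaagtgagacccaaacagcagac

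Capitals cover 100 bases of the Idh1 stretch, 200 of Nxt1 and 164 of Sar1a. They cover 220 and 139 bases at the first and second Celf2 starts and none at the third, whose only region was centred 354 bases upstream and so lies outside the stretch. The Sar1a stretch holds 24 CG dinucleotides, Idh1 18 and Nxt1 12, whereas the Celf2 starts hold 7, 5 and 3.

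RefSeq promoters, from 250 bases before to 50 after the start, could be matched to 128 starts of 124 member genes, with a median of 20 CG dinucleotides and a GC content of 62%. Matched starts of genes with 1, 2 and 3 regions had medians of 21, 22 and 21 CG dinucleotides, against 7 over all 32851 promoters of the RefSeq table. The GC box GGGCGG was found on either strand in 64.8% of the member promoters and in 35.7% of all RefSeq promoters. The letters CCAAT were found in 31.2% and 37.4%, TATAAA in 5.47% and 13.6%, and the cyclic AMP response element TGACGTCA in 3.91% and 1.79%. Genes with 1 region had shares of 64.7% for GGGCGG, 37.5% for CCAAT, 6.23% for TATAAA and 3.69% for TGACGTCA, so only CCAAT differed from the members by more than 1 percentage point. A match is a description of letters and not a binding site.

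Several annotated starts were more frequent among members, though most had 1. Of the 143 member genes found in the promoter table, 42.7% had 2 or more RefSeq starts, against 21.8%, 22.5% and 32.7% of genes with 1, 2 and 3 regions and 15.4% of all 27025 genes. More starts also give more promoter windows in which a row can be listed, so this is close to the rule itself. A start on the opposite strand within 1000 bases was listed for 21.7% of members and for 19.5%, 23% and 20.5% of the genes with fewer regions. The share of genes with a divergent neighbour was therefore close in all of these classes.

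The regions of a member lay close together. With starts over 2000 bases apart counted as separate, 133 of the 176 genes had all regions around 1 start, and these spanned a median of 721 bases (464 to 2200). Among 501 pairs of neighbouring regions at the same start the median gap was 82 bases (13 to 262 from the 10th to the 90th percentile), 57.5% of the gaps were at most 100 bases, and the centres were a median of 196 bases apart, with quartiles of 145 and 271. Most regions were narrow, since 77.6% of member regions and 71.5% of all regions were 100 bases wide and the widest member region had 317 bases. Counting as 1 the regions within 500 bases of each other left 4 genes with at least 4 regions, namely Dpp6, Rn4.5s, Rnu1a1 and Rnu6. In all other members the count of 4 thus depended on regions within 500 bases of each other being listed separately.

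Member regions lay further upstream than the region of a gene that had 1. They were centred upstream of the start in 77.3% of cases against 67.6%. The stretch from 1000 to 500 bases upstream held 27.5% of member regions against 14%, and that from 500 to 200 bases upstream held 28% against 19.4%. The last 200 bases before the start held 21.8% against 34.1%, and the part after the start held 22.7% against 32.4%. Regions on both sides of the start were present in 99 members, regions on the upstream side alone in 72, and regions on the downstream side alone in 5. The table lists regions from 1000 bases upstream to 943 bases downstream, so more distant signal is not part of these counts.

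**Figure D1:**
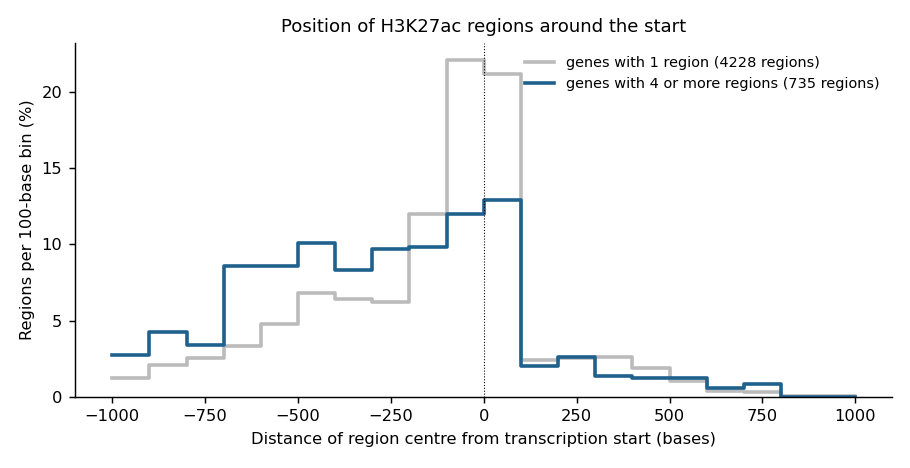
Share of H3K27ac regions (percent per 100-base bin) against the distance of the region's centre from the transcription start (bases), for genes with 4 or more regions and genes with 1. Between 500 and 1000 bases upstream the members held 27.5% of their regions and single-region genes 14%.

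The 176 members covered many roles. They included 18 mitochondrial genes (Ndufa5, Romo1, Vdac2, Vdac3), 17 genes of neuronal adhesion, synapse and receptor signalling (Cntn4, Robo2, Cdh18, Dpp6), 14 of membrane trafficking (Sar1a, Ykt6, Gabarapl1), 14 of RNA binding and processing (Celf2, Cpeb1, Virma) and 13 of chromatin and transcription. The last group held Ash2l, a core subunit of histone H3 lysine methyltransferase complexes, and Ncoa7, the only member in the list of 32 lysine acetylation genes. Further groups were 10 genes of protein folding, ubiquitin and stress response, 9 zinc finger genes, 7 of inflammatory signalling and cytoskeletal control, 7 metabolic enzymes, 6 of DNA repair and cell division, 5 of lipid and sterol metabolism, 12 gene models without a name, 3 antisense transcripts and 4 small RNA genes, and the other 37 members had further roles. None of the members was a marker in the lists for dopaminergic, serotonergic or other neurons, astrocytes, oligodendrocytes, microglia, T cells or endothelial cells. The roles were assigned after the names were known.

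Not all of these regions carried signal. In 32 of the 735 regions all 3 groups had the same value of 0.50, and 703 member regions of 11326 regions in all had a signal of at least 1 in some group. The 32 made up every region of Ermard, Gm2007, Gm3488, Gm52298, H2bc23 and Rnu1a1 and 7 of the 8 regions of Rn4.5s. This left 169 genes with 4 or more regions that passed, and the values that follow are for those regions. Rn4.5s, Rnu6, Rnu1a1 and H2bc23 belong to multicopy families whose reads may be shared between copies, so their values are uncertain.

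Some properties of the table touch the comparisons. The signal in 6-OHDA+NDST3 was below that in 6-OHDA in 0 of the 11424 regions, so the direction of this comparison was the same for every region. The reason was not tested. Next, the 6-OHDA column took 485 distinct values against 2910 for sham and 2411 for 6-OHDA+NDST3. Last, the labels name build mm10, yet among 9080 regions of genes with a GRCm38 start the start implied by the position and distance lay within 50 bases of it in 2.8%, at a median of 138059 bases. In 78% it was shifted by the same offset as in neighbouring genes. Coordinates of H3K27ac regions are therefore in the table's own numbering, and sequences were taken by gene and start.

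Signal in members was somewhat higher than in genes with fewer regions. The median tag signal over member regions was 17.6 in sham, 20.4 in 6-OHDA and 26.8 in 6-OHDA+NDST3. Regions of genes with 1 region had medians of 12.6, 13.7 and 20.4, genes with 2 regions 15.7, 17.4 and 23.9, and genes with 3 regions 17.2, 18.4 and 24.9. The order of the groups was the same in each class. Since no listed region had 6-OHDA+NDST3 below 6-OHDA, the order of these 2 groups could not differ between classes. The pooled values allow no test.

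The gene with the highest summed signal was Celf2, an RNA-binding regulator of splicing, with 183 in sham, 212 in 6-OHDA and 266 in 6-OHDA+NDST3 over 6 regions. Tmem135, Ndrg2, Ncoa7 and 1110046J04Rik followed. Ndrg2, a stress-related gene strongly expressed in astrocytes, had 5 regions along its start, and their 6-OHDA to sham ratios lay between 0.06 and 0.38 on the log2 scale. At Tmem135, a membrane protein of peroxisomes and mitochondria, 6 regions at 2 starts had ratios from -0.61 to 0.11.

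The first comparison asks how H3K27ac differed between the lesioned and the sham brain. As log2 ratios with 1 added to each signal, member regions had a median of 0.18 for 6-OHDA against sham, and all regions 0.13. The ratio was at least 2-fold higher in 46 member regions (6.54%), against 7.77% of all regions, and at least 2-fold lower in 23 (3.27%), against 4.52%. Both shares were below those of the whole table. The split between higher and lower turned when the columns were scaled to the same median, to 26 higher and 30 lower. The share of higher regions among those changed thus went from 66.7% to 46.4%. Measured from the median ratio of all regions, 26 of 703 member regions were at least 2-fold higher and 31 at least 2-fold lower. By this measure 5.25% of all regions were higher and 6.18% lower. The standard deviation of the ratio was 0.59 over member regions and 0.69 over regions of genes with 1 region, and over the whole table it was 0.77 in the 25% of regions with the lowest signal and 0.52 in the 25% with the highest.

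The ratios furthest above 0 for 6-OHDA against sham were at single regions of 3 genes. At 129 bases upstream of Eif2ak4, the kinase GCN2 that senses amino acid shortage, the signal was 1.51 in sham, 7.95 in 6-OHDA and 12.42 in 6-OHDA+NDST3, a log2 ratio of 1.83 for 6-OHDA against sham. At 204 bases upstream of Ap5b1, a subunit of the AP-5 adaptor complex, it was 6.47, 23.10 and 23.60 in the same order, a ratio of 1.69. At Snx7, a sorting nexin, the region 32 bases after the start had 4.75, 17.40 and 19.51, a ratio of 1.68. These regions were picked by this ratio, so their low sham values are a description.

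The ratios furthest below 0 came from low values in 6-OHDA. Nxt1, a cofactor of mRNA export from the nucleus, had signals of 14, 2.5 and 11.5 in sham, 6-OHDA and 6-OHDA+NDST3 at 167 bases upstream (chr2:148514318-148514418 in the table's numbering), and 5, 0.5 and 4 at 55 bases upstream. The log2 ratios of 6-OHDA to sham were -2.10 and -2 there. The outer regions of the same promoter, 638 and 441 bases upstream, had ratios of -0.38 and -0.43. A region of Cfap97 at 577 bases upstream had 21.21, 4.95 and 15.84, a ratio of -1.90. Values as low as 0.5 and 2.5 rest on little signal, and their error cannot be given because the depth is unknown.

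The second comparison asks how the vector-treated brain differed from the lesioned one. The median log2 ratio of 6-OHDA+NDST3 to 6-OHDA was 0.35 over member regions and 0.39 over all regions. It was at least 2-fold higher in 48 member regions (6.83%), against 11.1% of all regions, and lower in 0, against 0%. With the columns scaled to the same median, 12 member regions remained at 2-fold or more. Measured from the median ratio of all regions, 15 of 703 member regions were at least 2-fold higher, beside 3.63% of all regions. The value was equal in both groups in 21 member regions. Since 6-OHDA enters this comparison and the first with opposite sign, a low value in 6-OHDA lowers the first ratio and raises the second, as at Nxt1 (1.84 at 167 bases upstream) and at 445 bases upstream of Slc18a1, a vesicular monoamine transporter, with 21.19, 5.45 and 26.26 (-1.78, then 2.08).

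The largest ratio among the members was at Idh1, the cytosolic and peroxisomal NADP-dependent isocitrate dehydrogenase. Its region at 70 bases upstream (chr1:65225658-65225758 in the table's numbering) had 3.83 in sham, 8.65 in 6-OHDA and 92.27 in 6-OHDA+NDST3, log2 ratios of 1 for 6-OHDA against sham, 3.27 for NDST3 against 6-OHDA and 4.27 for NDST3 against sham. The region 523 bases after the start had 13.75, 26.50 and 78.52. Between them, at 400 and 171 bases after the start, NDST3 values were 25.94 and 25.88, close to 19.60 and 21.40 in 6-OHDA. The difference was thus uneven along the promoter, with the region marked in the printed Idh1 sequence far above its neighbours.

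Between 6-OHDA+NDST3 and sham the median log2 ratio was 0.54 over member regions and 0.53 over all regions. It was at least 2-fold higher in 158 member regions (22.5%), against 25.7% of all regions, and lower in 3 (0.427%), against 0.636%. Scaled to the same median, 50 were higher and 22 lower, and the share of higher regions went from 98.1% to 69.4%. Measured from the median ratio of all regions, 57 of 703 member regions were at least 2-fold higher and 19 at least 2-fold lower. By this measure 9.76% of all regions were higher and 4.2% lower. Pdss2, which is needed for the side chain of coenzyme Q, was higher along its whole promoter. Its regions at 657, 532, 389 and 161 bases upstream had log2 ratios of 2.47, 2.09, 0.97 and 0.96, and the first of them went from 8.64 in sham to 29.55 in 6-OHDA and 52.23 in 6-OHDA+NDST3.

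The 3 regions at least 2-fold lower were at Sar1a, Romo1 and Virma. Sar1a, the GTPase of COPII vesicle budding, had 7 in sham and 2.5 in both other groups at 34 bases upstream (-1.19), while its region at 351 bases upstream had 13.99, 21.60 and 29.19. Romo1, a small protein of the inner mitochondrial membrane, had 16.63, 6.45 and 7.94 at 4 bases after the start and 19.13, 7.45 and 7.95 at 105 bases after it (-1.17), while upstream, at 403 and 265 bases, it had 9.22, 18.60 and 27.90 and 13.31, 21.10 and 23.74. Virma, a subunit of the m6A methyltransferase complex, had 9, 2 and 4 at 82 bases upstream (-1). At Romo1 sham was the highest group after the start and the lowest before it.

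Regions of the same gene often differed in direction. For 6-OHDA against sham, 127 of 169 members had regions above and below 0, 35 had all regions above and 6 had all below. Set against the median of all regions, 135 lay on both sides, 24 wholly above and 10 wholly below. The range from the lowest to the highest log2 ratio within a gene had a median of 1.08, with 10th and 90th percentiles of 0.57 and 1.72. In 1 gene a region was at least 2-fold higher and another at least 2-fold lower, while 40 genes had at least 1 region 2-fold higher and 20 at least 1 that was 2-fold lower.

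**Figure D2:**
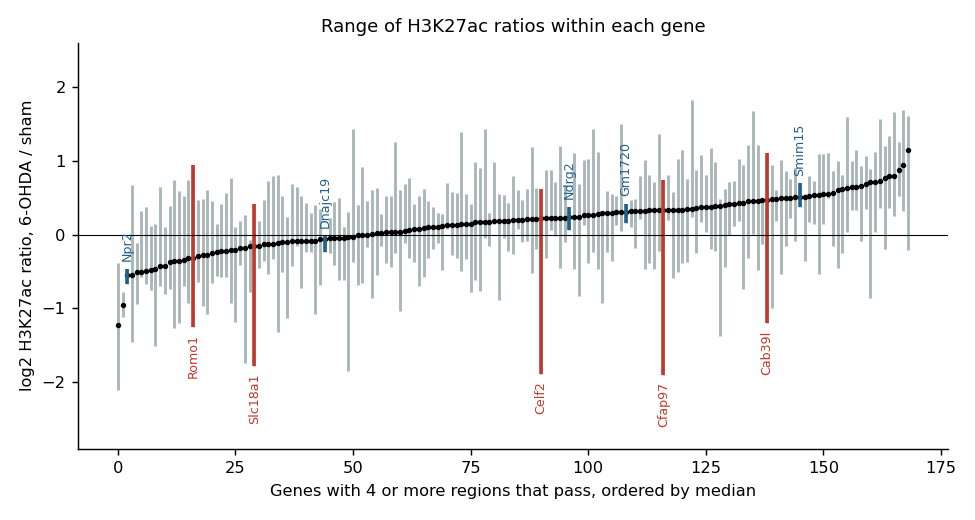
Range of log2 H3K27ac ratios of 6-OHDA to sham within each of the 169 genes with 4 or more regions that passed, 1 vertical line per gene from its lowest to its highest region, with a dot at the median, genes ordered by it, the 5 widest ranges in red and the 5 narrowest in blue. Lines crossing 0 belong to the 127 genes with regions on both sides.

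For 6-OHDA against sham the mean difference between pairs of regions of a gene had a median of 0.56 on the log2 scale over members. It was 0.47 for genes with 2 regions and 0.51 for genes with 3. A gene with 2 regions gives a single difference and a member a mean of several, so these medians cannot rank the classes. The standard deviation of the ratio was 0.59 over member regions and 0.63 and 0.61 over those of genes with 2 and 3. Only 14.3% of the variance of the ratio among member regions lay between genes, against 21.6% and 21% in genes with 2 and 3 regions. The other comparisons gave the same picture, with 6.77% between genes for NDST3 against 6-OHDA and 11% for NDST3 against sham. The mean pair difference had medians of 0.31 and 0.62 over members in this order, and the range had medians of 0.60 and 1.15. Most of the variance thus lay among regions of the same gene. How much of it is counting error cannot be given, and regions of a gene share their libraries and are not replicates.

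Cfap97 had the widest range, 2.64. Beside its region at 577 bases upstream with a ratio of -1.90, the region at 219 bases upstream had 15.09, 25.85 and 28.83 (0.74), that at 45 bases upstream 7.54, 8.95 and 11.93, and that at 133 bases after the start 10.57, 14.90 and 22.35. A single region out of 4 made the range. Celf2 (2.52), Cab39l (2.30), Slc18a1 (2.20) and Romo1 (2.19) came next.

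The narrowest ranges were at Npr2, Dnajc19, Gm1720, Ndrg2 and Smim15, from 0.22 to 0.32. Npr2, the receptor of C-type natriuretic peptide, had lower values in 6-OHDA than in sham at all 4 regions, with 16.07, 11.45 and 25.89 at 580 bases upstream, 17.07, 11.95 and 12.95 at 403, 33.16, 20.40 and 23.39 at 129, and 34.35, 22.35 and 30.58 at 13 bases after the start. Its ratios of 6-OHDA to sham lay between -0.67 and -0.46. Dnajc19, a co-chaperone of mitochondrial import, had ratios between -0.23 and -0.01. Smim15 had ratios between 0.38 and 0.70, all above 0.

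Of the genes with 6 regions, Ash2l had ratios of 6-OHDA to sham from -0.75 to 0.12, below 0 in 5 of its 6 regions. The lowest ratio there was at 40.76 in sham and 23.85 in 6-OHDA, with 38.16 in 6-OHDA+NDST3, at 622 bases upstream of a start. Mia2, which acts in the export of large cargo from the endoplasmic reticulum, ranged from -0.49 to 1.39. Zbtb44, a zinc finger transcription factor, ranged from -0.53 to 0.72. The last 2 genes had regions on both sides of 0 along 1 promoter.

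In 43 members the regions fell at separate starts, 34 with 2 starts, 5 with 3 and 4 with more. Among the 35 genes whose starts could be compared, 21 had starts with mean ratios on opposite sides of 0, and 19 on opposite sides of the median of all regions. The highest and lowest start of a gene differed by a median of 0.52 on the log2 scale. Yet pairs of regions at different starts of a gene differed by a median of 0.46 (152 pairs, quartiles 0.19 and 0.93), and pairs at the same start in these genes by 0.47 (100 pairs, quartiles 0.24 and 0.73). The medians were nearly equal, and pairs at different starts were more widely spread.

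Celf2 had 3 starts. At the first its mean signals were 31.5, 40.7 and 49.3 in sham, 6-OHDA and 6-OHDA+NDST3, and at the second 38.1, 44.0 and 51.8. At the third, the start with 3 CG dinucleotides and the letters TATAAA in its promoter window, the only region had 12, 2.5 and 15. The first and second starts thus had higher means in this order, and the third had its lowest value in 6-OHDA, with log2 ratios of -1.89 and 2.19. The value of 2.5 at the third start rests on little signal.

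Several other genes also had starts that went apart. Cab39l, a scaffold of the LKB1 kinase complex, had 12.6, 4.95 and 6.44 at the first start in coordinate order and means of 12.8, 20.4 and 30.5 at the second. Kdm2b, a histone demethylase that binds unmethylated CpG, had 9.98, 17.4 and 29.4 at the first and 19.3, 11.3 and 20.7 at the second. Phactr2, a regulator of protein phosphatase 1 and actin, had means of 7.95, 19.4 and 35.6 at the first and 11.3, 8.70 and 12.2 at the second. In these genes 1 start was higher and the other lower in 6-OHDA than in sham.

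The same held for some neuronal genes with long loci, though not for all. Dpp6, an auxiliary subunit of Kv4 potassium channels, had 4 starts with 3.19, 8.70 and 14.7 at the first, 16, 23 and 29 at the second, 16.6, 23.1 and 40.1 at the third and 20.6, 16.4 and 23.9 at the fourth. Pde4b, a cyclic AMP phosphodiesterase, had 16.1, 9.95 and 18.4, then 18.4, 14.9 and 23.6, then 21.6, 30.4 and 48.7. Cntn4, an axonal adhesion molecule, had 21.2, 15.4 and 22.7 and then 31.9, 46.5 and 53.2. In Dpp6 the last start alone was lower in 6-OHDA than in sham, and in Pde4b the last start alone was higher. By contrast, Robo2, Ppfia2 and Rcan2 were higher in 6-OHDA at every start. Their log2 ratios of 6-OHDA to sham were 0.34 and 0.63, 0.11 and 0.10, and 0.29 and 0.19.

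**Figure D3:**
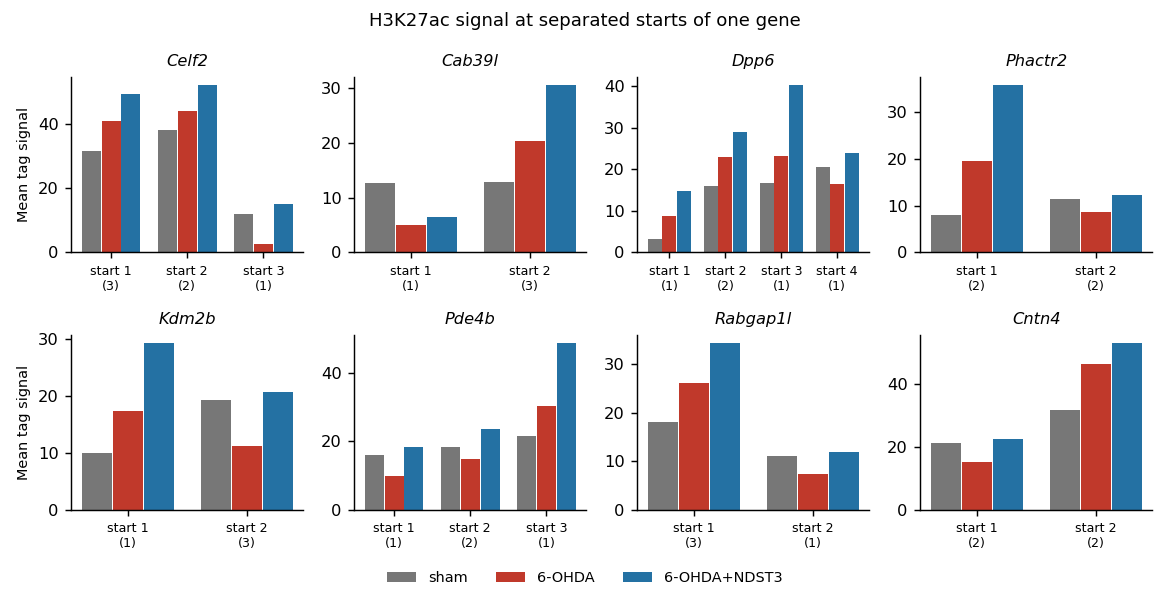
Mean H3K27ac tag signal at each separated start of selected members in sham, 6-OHDA and 6-OHDA+NDST3, 1 panel per gene, with the number of regions at each start in parentheses. At the third Celf2 start the signal was 12, 2.5 and 15, whereas the means of the first and second starts were higher from group to group.

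RNA-seq of the same genes gave values per library. Of the 176 members, 169 were listed in the count table, 4 of them through a gene ID under another symbol, and 166 were tested. Tested members had a median level of 9.61 FPKM against 4.63 over all genes tested. Over the members listed the median was 9.09 FPKM, beside 7.99, 8.57 and 9.35 for genes with 1, 2 and 3 regions. Total counts ranged from 51003699 to 70533326 per library. Th, tyrosine hydroxylase of dopamine neurons, had 115 and 135 CPM (counts scaled to library size) in sham, 2.15 in 6-OHDA and 11.5 and 8.03 in 6-OHDA+NDST3. Mouse Ndst3 had 14.1 and 21, 7.96, and 23.3 and 13.5 CPM, which does not measure the human transgene.

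Markers of cell types moved with the groups, and their part in the RNA results was not tested. The summed CPM of 12 neuron markers was 8250 and 9141 in sham, 2984 in 6-OHDA, and 7379 and 6275 in 6-OHDA+NDST3, and all 12 were lower in 6-OHDA than in sham. The 10 dopaminergic markers summed to 954 and 915, 170, and 297 and 280, with all 10 lower, and the 4 serotonergic markers to 317 and 144, 4.24, and 149 and 120, with all 4 lower. The 7 microglia markers listed went the other way, at 537 and 386, 3680, and 1298 and 1926, with all 7 higher. Of 8 astrocyte markers 5 were higher, with sums of 5166 and 4230, 11450, and 6513 and 7282. Oligodendrocyte markers summed to 14438 and 13654, 16372, and 15275 and 11775, endothelial markers to 237 and 218, 305, and 202 and 217, and T cell markers to at most 7.54. In bulk samples fewer cells of a type and less RNA per cell cannot be told apart.

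Between 6-OHDA and sham, 24 members were higher (14.5%), against 18.8% of all genes tested, and 42 were lower (25.3%), against 17.1%, in the quasi-likelihood test of edgeR with a Benjamini-Hochberg threshold of 0.05 over all genes. The share of lower members was above that of all genes, and the median log2 fold change was -0.03 against 0. Of genes with 1, 2 and 3 regions 20.9%, 20% and 20.7% were lower and 18.5%, 18.2% and 16.6% higher. Their medians were -0.06, -0.04 and -0.05, so part of the difference from all genes was shared by these classes. All of these calls rest on the lone 6-OHDA library, whose spread is taken from the other groups. Without sham replicate 1 or without sham replicate 2, 0 members and 0 of all genes passed, against 6916 of all genes as reported, while the fold changes stayed close. Cdh18 had a log2 fold change of -2.13 and -1.86 without sham replicate 1 and 2 (edgeR adjusted p = 0.0581 and 0.0915), and Adam17 had 1.73 and 1.59 with the same adjusted p. The labels do not say that the libraries came from separate animals, so p-values measure only the spread between these samples.

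Among neuronal genes most of those that passed fell. Of 17 members in this group 8 were lower (47.1%), against 17.1% of all genes tested. They were Cdh18, Gpr165, Clstn3, Dpp6, Rcan2, Robo2, Ppfia2 and Slc18a1. In the other direction 1, Rgs2, was higher (5.88%), against 18.8% of all genes. The median log2 fold change was -0.56 against 0 over all genes. Cdh18 (gene 320865), a type II cadherin, had 38.2 and 45.9 CPM in sham, 10.5 in 6-OHDA and 37.7 and 34.4 in 6-OHDA+NDST3. It fell by 2 ± 0.18 (SE) on the log2 scale with an adjusted p of 0.00823 in edgeR's test. Clstn3 (gene 232370), a postsynaptic calsyntenin, had 588 and 649 CPM in sham, 191 in 6-OHDA and 528 and 461 in 6-OHDA+NDST3, a log2 fold change of -1.70 ± 0.16 (edgeR adjusted p = 0.00823). Dpp6 (gene 13483) had 390 and 454, 143, and 377 and 323 CPM (-1.56 ± 0.18, edgeR adjusted p = 0.00838). In these genes the 6-OHDA library lay below all 4 others.

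Robo2, a receptor for the axon guidance cue Slit, and Gpr165, an orphan receptor, had the same order, with 61.8 and 86.2, 33.0, and 72.4 and 53.7 CPM for Robo2 and 35.5 and 40.2, 11.4, and 35.3 and 28.0 CPM for Gpr165. Slc18a1 was under 1 CPM in every library, from 0.155 in 6-OHDA to 0.796 in sham. The 6-OHDA value was the lowest of the 5 in each of these genes.

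Of the 7 inflammatory and cytoskeletal members 4 were higher (Tifa, Malt1, Adam17 and Rock1) and 0 lower, with a median log2 fold change of 0.97. In these small groups the shares over all genes, 18.8% higher and 17.1% lower, are the measure beside which each count stands, here and in the groups that follow. Tifa (gene 211550), an adaptor that links sensing of bacterial sugars to NF-κB, had 7.16 and 5.97 CPM in sham, 32.3 in 6-OHDA and 10.8 and 17.6 in 6-OHDA+NDST3, with a log2 fold change of 2.30 ± 0.31 (edgeR adjusted p = 0.00922). Adam17 (gene 11491), the sheddase of tumour necrosis factor, had 33.9 and 30.6, 102, and 52.1 and 57.1 CPM (1.66 ± 0.12, edgeR adjusted p = 0.00823). In both genes all NDST3 values lay between sham and 6-OHDA. Summed microglia markers, given above, were higher in the same library.

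Mthfs, Lpcat3 and Arhgap11a followed among the members that were higher. Mthfs, an enzyme of folate metabolism, had 2.06 and 1.93, 6.76, and 2.62 and 3.28 CPM (log2 fold change 1.76, edgeR adjusted p = 0.0115). Lpcat3, which puts polyunsaturated chains into phospholipids, had 23.4 and 17.9, 62.7, and 28.4 and 35.2 CPM (1.61, edgeR adjusted p = 0.00914). Arhgap11a, a GTPase-activating protein of dividing cells, had 4.81 and 4.61, 13.9, and 6.28 and 6.75 CPM (1.56, edgeR adjusted p = 0.00847). Each had 1 library, that of 6-OHDA, well above the others.

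The stress response group was split. Of 10 genes 5 were lower (Cand1, Dnajb1, Oxr1, Usp15 and Fkbp8) and 2 higher, with a median of -0.50. The higher ones were Hspa5, the chaperone BiP of the endoplasmic reticulum, with 325 and 349, 457, and 395 and 377 CPM, and the redox protein Txn1, with 47.0 and 43.7, 74.3, and 46.0 and 58.9. Dnajb1, a heat shock protein co-chaperone, had 59.0 and 69.8, 40.8, and 65.7 and 55.2 CPM, and Oxr1, a protein of oxidation resistance, 210 and 260, 150, and 245 and 263.

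Mitochondrial members were mixed, with 2 of 18 higher (Etfrf1 and Suclg2), 4 lower (Slc25a25, Pdss2, Mrs2 and Vdac3) and a median of 0.05. In trafficking 4 of 13 tested were higher (Ykt6, Ap5b1, Ralb and Snx7) and 3 lower (Gabarapl1, Rabgap1l and Snx14), with a median of 0.27. In the chromatin group 3 of 13 were higher (Msl3, Lcorl and Rarg) and 2 lower (Ncoa7 and Camta2), with a median of 0.18. Of the 14 RNA-binding genes 4 were lower (G3bp2, Zc3h6, Dis3l and Cpeb1) and 0 higher, with a median of -0.06. Of the 5 lipid genes 1, Lpcat3, was higher and 2 were lower, among them Cert1, with a median of -0.21. Of 9 zinc finger genes Zfp24 was higher and Zscan18 and Zfp788 lower. Of the 37 members with further roles 2 were higher and 9 lower, with a median of -0.09. None of the 6 gene models, 3 antisense transcripts and 1 small RNA gene tested passed.

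Ncoa7 (gene 211329), a nuclear receptor coactivator with a TLDc domain linked to oxidative stress, had 78.5 and 94.5 CPM in sham, 36.0 in 6-OHDA and 79.4 and 80.6 in 6-OHDA+NDST3, a log2 fold change of -1.26 ± 0.15 (edgeR adjusted p = 0.00847). Of the 32 lysine acetylation genes, all tested, 4 were higher and 10 lower in 6-OHDA. Its 5 H3K27ac regions at 2 starts had ratios of 6-OHDA to sham from -0.50 to 0.53.

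Members with separated starts and members with 1 start were counted apart. Of 39 tested with separated starts, 1 was higher (2.56%) and 9 were lower (23.1%), with a median of -0.30. Of 126 with all regions around 1 start 23 were higher (18.3%) and 33 lower (26.2%), with a median of 0. Over all genes 18.8% were higher and 17.1% lower. The shares of lower genes were thus close in both sets, and those of higher genes were not. Neuronal genes with long loci such as Dpp6 and Robo2 were among those with separated starts. The difference between these counts was not tested.

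Between 6-OHDA+NDST3 and 6-OHDA, 21 members were higher (12.7%), against 9.06% of all genes, and 13 were lower (7.83%), against 6.59%, in edgeR's test. Of genes with 1, 2 and 3 regions 11.9%, 11.5% and 12% were higher and 6.89%, 5.96% and 5.49% lower. The share of higher members was thus close to that of these classes. This comparison shares the 6-OHDA library with the first, and the number of members called in it depended on the libraries fitted. The number fell to 0 without either sham library, without 6-OHDA+NDST3 replicate 1, and when only the 2 groups were fitted, and it was 30 without 6-OHDA+NDST3 replicate 2. Over all genes the number went from 3019 to 0, or to 1 without 6-OHDA+NDST3 replicate 1, while the fold changes moved little. Cdh18 had a log2 fold change of 1.78 without either sham library and with 2 groups and 1.71 without 6-OHDA+NDST3 replicate 1, with edgeR adjusted p from 0.0565 to 0.116.

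Cdh18 was higher by 1.78 ± 0.18 on the log2 scale (edgeR adjusted p = 0.0320), Gpr165 by 1.47 ± 0.20, Clstn3 by 1.37 ± 0.16 and Dpp6 by 1.29 ± 0.17 (each with an edgeR adjusted p of 0.0320). Of the neuronal group 5 of 17 were higher (29.4%), against 9.06% of all genes, and 0 were lower, against 6.59%. The median of this group was 0.59 against 0 over all genes. Zscan18, with 18.5 and 22.5, 7.40, and 17.9 and 15.0 CPM, was higher by 1.15 (edgeR adjusted p = 0.0376), and Ncoa7 also by 1.15 (edgeR adjusted p = 0.0320). Neuron markers were higher in 9 of 12, serotonergic ones in 4 of 4 and dopaminergic ones in 4 of 10, with 0 lower in each list.

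Among the genes that were lower with NDST3, Mthfs had a log2 fold change of -1.19 ± 0.28 (edgeR adjusted p = 0.0496), Arhgap11a -1.09 ± 0.18 (0.0350), Lpcat3 -0.98 ± 0.22 (0.0462), Adam17 -0.90 ± 0.12 (0.0320) and Rarg, the retinoic acid receptor gamma, -0.83 ± 0.17 (0.0421). Tifa had -1.18 ± 0.31 and did not pass (edgeR adjusted p = 0.0617). The inflammatory group had 2 of 7 lower (28.6%), Adam17 and Rock1, against 6.59% of all genes, and 0 higher, against 9.06%. Its median was -0.68. None of the 7 microglia markers tested passed in this comparison, and 1 of 8 astrocyte markers and 3 of 5 endothelial markers were lower. Idh1, with 68.2 and 62.1 CPM in sham, 107 in 6-OHDA and 65.0 and 73.0 in 6-OHDA+NDST3, had a log2 fold change of -0.64 ± 0.12 (edgeR adjusted p = 0.0398), and it is the gene whose promoter region had the largest H3K27ac ratio for the same groups.

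Between 6-OHDA+NDST3 and sham, 0 members were higher and 0 lower in edgeR's test, against 0% of all genes in each direction. The lowest adjusted p over all genes was 0.103. At an unadjusted p under 0.05, 19 members and 2744 of 19300 genes were counted. DESeq2 called 5 members and 1023 of all genes. Cdh18 had a log2 fold change of -0.22 ± 0.13, Dpp6 -0.27 ± 0.13, Adam17 0.76 ± 0.10 and Tifa 1.12 ± 0.27. These values did not pass, which does not show that the groups were alike.

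**Figure D4:**
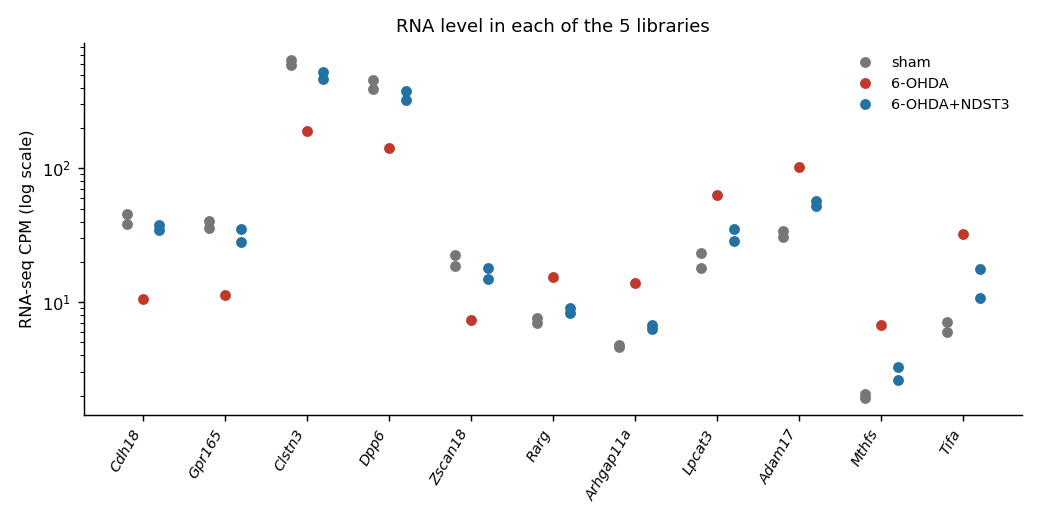
RNA level (CPM, log scale) of selected members in each of the 5 libraries, 1 point per library, with 2 for sham, 1 for 6-OHDA and 2 for 6-OHDA+NDST3. The 6-OHDA point of Cdh18 (10.5) lies below the 4 others and that of Tifa (32.3) above them.

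H3K27ac and RNA of the same member were set side by side. Over 161 genes with both values, the median log2 H3K27ac ratio of 6-OHDA to sham and the RNA log2 fold change had Pearson's r of -0.0164, with the same sign in 75 genes and opposite signs in 85. These are correlations across genes, which are not replicates and share their libraries. The 42 members with lower RNA had a median H3K27ac ratio of 0.19, and in 12 of them it was below 0. The 24 with higher RNA had a median of 0.35, above 0 in 20, and the other 95 had 0.15. Most members whose RNA fell thus had H3K27ac ratios above 0 in the columns as listed, and the median of all regions was itself 0.13.

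For 6-OHDA+NDST3 against 6-OHDA, r was -0.0617, and the ratio medians were 0.33 in the 21 members with higher RNA and 0.30 in the 13 with lower RNA. Here the table lists no ratio below 0, so the signs carry no information. Against sham r was 0.0951.

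Single genes show both cases. Clstn3, with lower RNA, had H3K27ac ratios of 6-OHDA to sham of 0.19, 0.35 and 1.02 at 73, 246 and 534 bases upstream and -0.39 at 844. Cdh18 had signals of 36.73, 24.35 and 37.27 at 642 bases upstream and 43.78, 31.80 and 40.15 at 498, with ratios of -0.57 and -0.45, and its RNA was lower too. Tifa had ratios from 0.17 to 0.80 at its 4 regions, all above 0, and higher RNA. Nxt1, with the lowest ratio of the mark near its start, had 6.91 and 5.72, 7.59, and 6.62 and 6.12 CPM (log2 fold change 0.27 ± 0.22, edgeR adjusted p = 0.390). Celf2 had 98.3 and 123, 144, and 113 and 142 CPM (0.38 ± 0.20, edgeR adjusted p = 0.203).

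**Figure D5:**
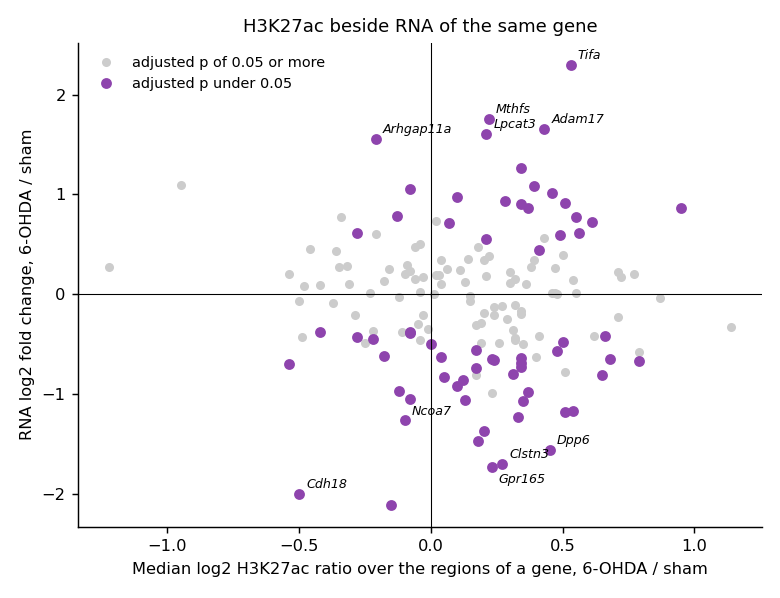
RNA log2 fold change against the median log2 H3K27ac ratio over the regions of a gene, both for 6-OHDA against sham, 1 point per member (161 genes), purple where the RNA test passed and grey where it did not. The points show no slope (Pearson's r = -0.0164).

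ATAC-seq, with 1 library per group and no test, covered a few members. Of 3582 regions listed, 59 were named for 35 member genes, and 46 in 33 genes remained without small RNA genes. A base was shared with a member H3K27ac region in 22 of the 59. The median log2 ratio over the 46 was 0.06 for 6-OHDA against sham, 0.01 for NDST3 against 6-OHDA and 0.04 for NDST3 against sham, beside 0.11, 0.11 and 0.20 over all regions. At least 2-fold higher and lower were 1 and 1, 1 and 1, and 3 and 3 of the 46 in this order. Over all regions 4.58% were higher and 5.06% lower, then 4.41% and 3.53%, then 8.37% and 5.91%.

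At Npr2 accessibility and H3K27ac had opposite orders in 6-OHDA and sham. Its ATAC region at 562 bases upstream had 8.97 in sham, 20.2 in 6-OHDA and 27.5 in 6-OHDA+NDST3, a log2 ratio of 1.09 for 6-OHDA against sham, while H3K27ac was lower in 6-OHDA at all 4 regions. Npr2 RNA had 49.7 and 45.9, 54.8, and 41.9 and 43.4 CPM and did not pass (edgeR adjusted p = 0.222). Pot1a, a telomere protein, had the highest ATAC values among the members, from 325 to 533 at 3 regions, with 6-OHDA to sham ratios between -0.13 and -0.08. At Ncoa7 an ATAC region 909 bases upstream had 11.9, 6.75 and 9.87, and another at 719 bases upstream had 14.8, 14.5 and 16.5. Ttpal, a lipid transfer protein related to the tocopherol carrier, had 5.4, 1 and 2 at 241 bases upstream, the only region of the 46 that was at least 2-fold lower in 6-OHDA.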

How the data were processed

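The study measured H3K27ac by CUT&RUN, RNA by RNA-seq and accessibility by ATAC-seq in sham, 6-OHDA and 6-OHDA+NDST3 brain. The authors deposited a CUT&RUN table of tag signal per region with 1 pooled column per group; its peak caller and normalization are not given in the sources used here. The ATAC-seq table deposited by the authors holds signal per region from 1 library per group. The submitters' processing notes name bcl2fastq, Trim Galore, Bowtie, Cell Ranger and build mm10, and the study's methods name Trimmomatic, HISAT2 and StringTie for RNA. The RNA table deposited by the authors holds raw read counts, FPKM and TPM per library, without genes at 0 counts in a library, with 51003699 to 70533326 counts. Depth of the signal tables is unknown, so no interval is given.

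Ratios were log2((signal + 1)/(signal + 1)) for regions with a signal of at least 1 in some group, and 2-fold was the size used for counting, without a test. Counts were fitted for 3 group means over all 5 libraries with edgeR 4.0.16 in R 4.3.3 (TMM, filterByExpr, quasi-likelihood F test, 2 residual degrees of freedom), and p-values were adjusted by Benjamini-Hochberg over 19300 of 20328 genes. Scripts were tested on simulated data. DESeq2 1.42.0 and limma 3.58.1 served as alternatives, with other filters, scalings, pseudocounts and libraries left out. FPKM was used for levels between genes and TPM was not used. The single-cell libraries were not used here, and values of some members are not reported here.

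Named genes were those with 6 or more regions, the 5 widest and 5 narrowest ranges, the 5 highest summed signals, the 3 largest rises and falls per H3K27ac comparison, the 5 largest RNA rises and falls that passed with a mean of at least 1 CPM, and listed markers. Others were chosen after their values were seen. The members and lists were chosen with earlier results of these data known.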

Additional observations from a re-analysis of the deposited data

How the results depend on the processing

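The limits are the pooled H3K27ac columns, whose error is unknown, and the single 6-OHDA RNA library. Leaving out 1 library at a time gave 0 to 68 members called for 6-OHDA against sham (66 as reported), 0 to 30 for NDST3 against 6-OHDA (34) and 0 to 1 for NDST3 against sham (0). A 2-fold change with an unadjusted p under 0.05 was met by 24, 11 and 1 members, and by 4731, 3024 and 1131 of all 19300 genes. DESeq2 called 75, 55 and 5 members, and 7492, 5194 and 1023 of all genes. Fitting only the 2 groups compared left 0 for NDST3 against 6-OHDA. With the replicate number as a block, 17, 0 and 0 members passed in this order. Deviations of same-numbered libraries correlated at -0.432 over 2 pairs, so the numbers were not taken to pair the libraries, and with the pairing crossed, added after seeing the data, 67, 44 and 6 passed. TMM replaced by relative log expression, no filter, a filter of 1 CPM and limma kept the total of each comparison within 1.5 times of that reported, while limma on log2 FPKM with 1 or 0.1 added called 8 or 6 members lower for NDST3 against 6-OHDA in place of 13. For named genes 81 of 260 RNA results lost significance under an alternative and none changed direction.

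The percentage of member regions past 2-fold, as reported, was 9.82 for 6-OHDA against sham, 6.83 for NDST3 against 6-OHDA and 22.9 for NDST3 against sham. It was 3.56, 2.56 and 13.9 with a pseudocount of 5, and 31, 27.3 and 49.4 when 1.5-fold counted. Columns scaled to the same median gave 1.71 and 10.2 for the latter 2 comparisons. Merging regions within 500 bases, which left 3 genes with signal, gave 22.2, 0 and 44.4, and genes with 5 or more regions gave 2.7 for NDST3 against 6-OHDA. The cause of these moves was not tested. For 6-OHDA against sham the median over genes of the mean difference between regions stayed between 0.46 and 0.66.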
